A study of Homo sapiens with 4 samples.

Results

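T-box factors are transcription factors that share a DNA-binding domain, the T-box. The members described here are TBX1, TBX2, TBX3, TBX4, TBX5, TBX6, TBX15, TBX18, TBX20 and EOMES, chosen by gene symbol as 10 of the 25690 genes in the deposited count table. RNA sequencing of polyA-enriched mRNA was done in H9, an established human embryonic stem cell line, at day 7, in cells that the series calls non-neural ectoderm, the early ectoderm outside the neural plate. There were 2 wild-type (WT) libraries and 2 libraries with the genotype label TFAP2A knockout, named here the labelled knockout libraries because their sample titles name TFAP2C instead. The differentiation treatment, the guide, the number of clones and whether replicates were separate cultures are not stated in the labels. The p-values therefore measure only how far these 4 libraries differ, and that spread may be technical. Both genotypes share the H9 background and the day of collection, and no other allele or agent is named in the labels.

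T-box proteins bind short T-box elements in DNA, and some members activate while others repress their targets. In the embryo they are known as dose-sensitive regulators of heart, limb, pharynx and mesoderm. TBX2 and TBX3 act mainly as repressors, and BMP signalling is a known inducer of both. TBX2 and TBX4 lie side by side in the genome, as do TBX3 and TBX5, in pairs that arose by duplication.

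Total counts per library ran from 17838204 to 21797850.5. TFAP2A, the gene named in the genotype label, was still read in every library, at 171 and 198 CPM (counts scaled to 1000000 of the TMM-adjusted library size, TMM being edgeR's trimmed-mean scaling) in WT and 133 and 121 CPM in the labelled knockout libraries. Its level fell by 0.54 on the log2 scale (SE 0.07, Benjamini-Hochberg adjusted p = 0.000125 in edgeR), and counts per gene do not show whether the remaining reads carry a lesion. TFAP2C, the gene in the sample titles, was at 27.5 and 30.6 CPM in WT and at 8.89 and 5.77 CPM in the labelled knockout libraries. All 16 listed markers of non-neural ectoderm were detected, with summed levels of 3609.5 and 3920.1 CPM in WT and 2596 and 2495.1 CPM in the labelled knockout libraries. Of these markers 10 fell, 0 rose and 6 did not pass the test, while of all genes tested 22.3% fell and 21.9% rose. The list includes TFAP2A and TFAP2C themselves, and both are among the 10 that fell. Mesenchymal and lateral plate markers were also read in both genotypes, with summed levels of 10061 and 10384 CPM in WT and 7925 and 9306 CPM in the labelled knockout libraries. Most of that sum came from the collagen genes COL3A1, at 6411 CPM on average in WT, and COL1A1, at 3096 CPM, while PRRX1 was at 40.4 CPM and FOXF1, OSR1 and MEOX1 were each under 5 CPM.

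Of the 10 T-box genes, 4 fell in the labelled knockout libraries (TBX4, TBX20, TBX6 and TBX18), 0 rose and 3 did not pass the test (TBX2, TBX3 and TBX5). The other 3 (TBX1, TBX15 and EOMES) had too few counts to be tested. Across all 15643 genes tested, 44.2% were called, with 22.3% lower and 21.9% higher in the labelled knockout libraries. A gene was called when its adjusted p from edgeR's quasi-likelihood test was under 0.05. The median log2 fold change was -0.78 over the 7 T-box genes tested and 0.0019 over all genes tested. TBX4 and TBX20 passed the low-count filter, which asks for 0.537 CPM in at least 2 libraries, only through WT, where they were high, so these counts and medians are descriptions. In edgeR, DESeq2 and limma-voom alike, 0 of the 7 rose at an unadjusted p under 0.05.

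**Figure D1:**
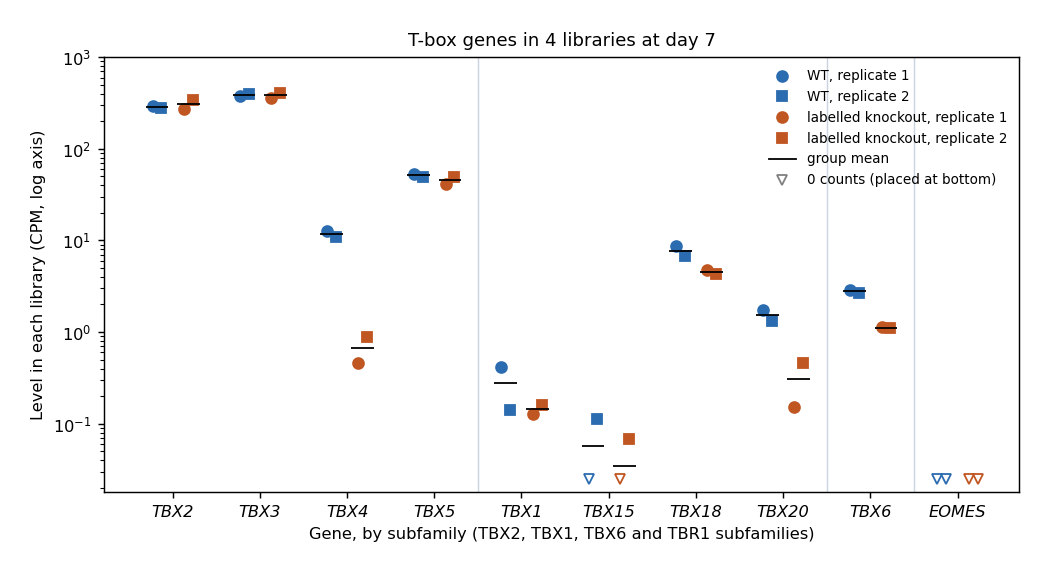
Level of each T-box gene in each library, in CPM on a log axis, with 1 point per library, a horizontal bar for the mean of 2 libraries, and open triangles for libraries at 0 counts. TBX2 and TBX3 overlapped between genotypes, whereas TBX4, TBX6, TBX18 and TBX20 were lower in both labelled knockout libraries than in either WT library. With 2 libraries per genotype such separation is a description, and its share over all genes tested is not given here.

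TBX4, a regulator of hindlimb and lung mesenchyme, showed the largest difference among the T-box genes tested. WT libraries held 229.5 and 190.5 TBX4 counts and labelled knockout libraries 9 and 19.5, which correspond to 12.8 and 10.8 CPM against 0.461 and 0.894 CPM. Both WT libraries lay far above both labelled knockout libraries. The mean fell from 11.8 ± 1.44 to 0.677 ± 0.306 CPM (SD, n = 2 each), a fitted 16.7-fold difference with a log2 fold change of -4.07 (SE 0.25, 95% interval -4.60 to -3.53, edgeR adjusted p = 8.41e-09). Of the genes tested, 96, or 0.614%, had a log2 fold change as low or lower. TBX4 passed the low-count filter only through WT, where it was high, so this rank is a description. The size of this fall rested in part on 1 library, since without the labelled knockout replicate 2 the log2 fold change was -4.66. In bulk RNA, fewer cells of a type and less RNA per cell cannot be told apart, which applies to every level given here.

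TBX2, the neighbour of TBX4 and a repressor that keeps regions of the heart tube from forming chamber muscle, was among the highest T-box genes. It stood at 291 and 282 CPM in WT and at 270 and 341 CPM in the labelled knockout libraries. The labelled knockout replicates lay on either side of both WT libraries. The means were 287 ± 6.09 and 306 ± 50.8 CPM (SD, n = 2 each), with a log2 fold change of 0.09 (SE 0.12, 95% interval -0.22 to 0.40, edgeR adjusted p = 0.582). The call for TBX2 depended on 1 library: without the labelled knockout replicate 1 its log2 fold change was 0.25 (edgeR adjusted p = 0.00347), and without the labelled knockout replicate 2 it was -0.089. Within each library, TBX4 gave 4.41 and 3.82 counts per 100 TBX2 counts in WT, and 0.171 and 0.262 in the labelled knockout libraries. The balance of counts within this gene pair therefore differed between genotypes, with no overlap, and it does not depend on library scaling.

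TBX3, a repressor known from the conduction system, the mammary gland and the limb, had the highest level per length of the 10 genes. Its libraries read 374 and 398 CPM in WT and 359 and 407 CPM in the labelled knockout. The WT values lay between those of the labelled knockout libraries. The log2 fold change was -0.01 (SE 0.06, 95% interval -0.15 to 0.12, edgeR adjusted p = 0.880), and its sign turned under 3 of 13 other settings. As a ratio of labelled knockout to WT, the interval runs from 0.902 to 1.09.

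TBX5, a regulator of forelimb and heart, shares its genomic neighbourhood with TBX3. It was read at 53.2 and 49.6 CPM in WT and at 41.8 and 49.9 CPM in the labelled knockout libraries. The groups overlapped, because the labelled knockout replicate 2 lay just above WT replicate 2. The log2 fold change was -0.16 (SE 0.09, 95% interval -0.35 to 0.02, edgeR adjusted p = 0.140), and without the labelled knockout replicate 2 it was -0.30 (edgeR adjusted p = 0.0131). TBX5 gave 14.2 and 12.5 counts per 100 TBX3 counts in WT and 11.7 and 12.3 in the labelled knockout libraries.

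TBX20 is known from the endocardium and heart muscle. WT libraries had 31 and 23 counts of it and labelled knockout libraries 3 and 10, or 1.73 and 1.30 CPM against 0.154 and 0.458 CPM. The groups did not overlap, but the gene was near the detection limit in the labelled knockout, where 3 counts in a library correspond to 0.154 or 0.137 CPM. The mean fell from 1.52 ± 0.304 to 0.306 ± 0.215 CPM (SD, n = 2 each), with a log2 fold change of -2.25 (SE 0.46, 95% interval -3.24 to -1.27, edgeR adjusted p = 0.00111). Without the labelled knockout replicate 2 the log2 fold change was -3.25.

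TBX18 is known from the sinus node, the epicardium and the anterior part of each somite. WT libraries read 8.70 and 6.75 CPM, and labelled knockout libraries 4.71 and 4.31 CPM. Both WT libraries were higher, though the 2 WT values differed more from each other than the 2 labelled knockout values did. The mean fell from 7.72 ± 1.38 to 4.51 ± 0.285 CPM (SD, n = 2 each), a log2 fold change of -0.78 (SE 0.18, 95% interval -1.16 to -0.40, edgeR adjusted p = 0.00261). This was the smallest of the 4 falls that passed the test.

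TBX6, which directs paraxial mesoderm towards somites, was low but differed little between replicates. It had 51.5 and 47 counts in WT and 22 and 24 in the labelled knockout libraries, or 2.88 and 2.67 CPM against 1.13 and 1.10 CPM. Neither labelled knockout library came near a WT value. The log2 fold change was -1.32 (SE 0.26, 95% interval -1.89 to -0.75, edgeR adjusted p = 0.000965), a 2.50-fold lower level. Leaving out any 1 library, or changing any other setting tried, kept the log2 fold change of TBX6 between -1.38 and -1.26.

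The remaining members were at or near the floor of detection. TBX1, a regulator of the pharyngeal arches, had 7.5 and 2.5 counts in WT and 2.5 and 3.5 in the labelled knockout libraries. The WT level was 1.94 times the labelled knockout level, with a 95% exact (Clopper-Pearson) interval of 0.639 to 6.50 that covers counting error only, so no difference was detectable at this depth. TBX15, known from skin and limb mesenchyme, had 0 and 2 counts in WT and 0 and 1.5 in the labelled knockout libraries, and no ratio is given. EOMES, a regulator of mesendoderm and of trophoblast, was not read in any of the 4 libraries. A count of 0 allows up to 0.0845 CPM over the WT libraries and 0.0726 CPM over the labelled knockout libraries.

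**Figure D2:**
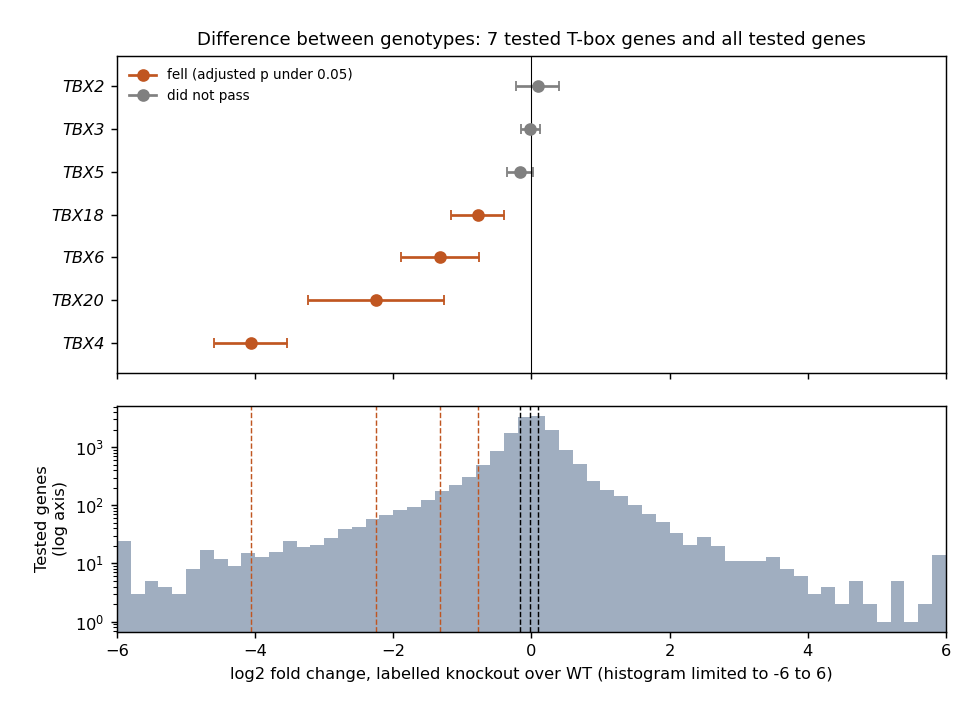
Upper panel, log2 fold change (labelled knockout over WT) of the 7 T-box genes tested, with 95% intervals; lower panel, the number of tested genes at each log2 fold change on a log axis, with values past the ends of the axis counted in the end bars and dashed lines at the T-box genes. TBX4 at -4.07 lies far in the lower tail, and the intervals of TBX2, TBX3 and TBX5 include 0.

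Levels of different T-box genes were compared per kilobase of exon, using the merged exons of each gene in GENCODE v29, since the table holds no gene length. In WT, TBX3 came first at 64.9 ± 2.84 CPM per kb, then TBX2 at 47.6 ± 1.01 and TBX5 at 11.8 ± 0.587 (SD, n = 2 each). TBX4 followed at 2.96 ± 0.359 CPM per kb. TBX18 at 0.912 ± 0.163, TBX6 at 0.884 ± 0.0484 and TBX20 at 0.810 ± 0.162 CPM per kb did not differ beyond their spread, and TBX1 and TBX15 were below them. In the labelled knockout libraries TBX3 at 64.3 ± 5.71, TBX2 at 50.7 ± 8.43 and TBX5 at 10.5 ± 1.30 CPM per kb again came first. TBX18 was next at 0.533 ± 0.0337 and TBX6 at 0.355 ± 0.00604 CPM per kb. TBX4, at 0.170 ± 0.0766 CPM per kb, had moved from the fourth place to a level that did not differ beyond its spread from TBX20, at 0.163 ± 0.115 CPM per kb. TBX2 and TBX3 together held 89.3% and 90.5% of the summed CPM of the 10 genes in WT, and 92.8% and 92.9% in the labelled knockout libraries. That sum itself was 745 and 752 CPM in WT and 677 and 805 CPM in the labelled knockout libraries, which overlap.

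The replicates of the labelled knockout differed for several members, but the share of all genes with replicate 2 higher is not given here. TBX1, with 2.5 and 3.5 counts, and TBX15, with 0 and 1.5, were too low to compare. Replicate 2 was above replicate 1 in CPM for TBX2, TBX3, TBX4, TBX5 and TBX20, and slightly below it for TBX6 and TBX18. The plot of values under other settings shows where this matters: TBX4 and TBX20 kept their call with either replicate left out, while TBX2 and TBX5 each gained a call with 1 of them left out.

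**Figure D3:**
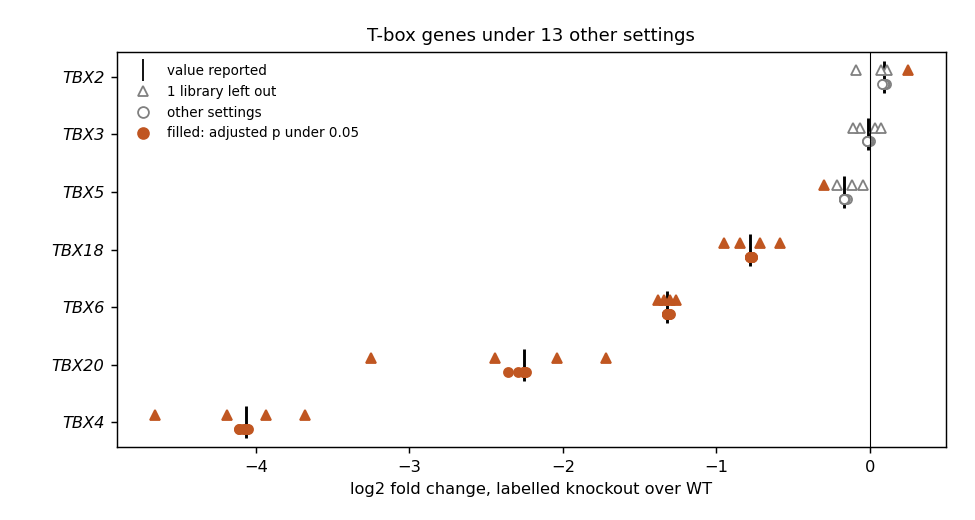
Log2 fold change of each tested T-box gene as reported (vertical bar) and under 13 other settings, with triangles for settings that leave out 1 library, circles for the others, and filled symbols for an adjusted p under 0.05. TBX4, TBX6, TBX18 and TBX20 stayed below 0 and past the threshold under all 13, and TBX20 spread the most, from -3.25 to -1.72.

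Among other genes of the family, 1 rose. Of the 8 further T-box symbols listed, 7 were in the table, and the 2 with enough counts were MGA and TBX19. MGA, which carries both a T-box and a domain that pairs with MAX, rose from 104 and 116 CPM in WT to 135 and 132 CPM in the labelled knockout libraries (log2 fold change 0.28, SE 0.06, edgeR adjusted p = 0.00174). TBX19, the pituitary factor, was at 1.42 ± 0.0457 CPM in WT and 1.43 ± 0.112 CPM in the labelled knockout libraries (SD, n = 2 each). The gene T (brachyury) and TBX21 had 0 counts in every library, and TBR1, TBX10 and TBX22 stayed below the filter.

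Antisense genes lie beside both T-box pairs. In the deposited coordinates, taken here as hg19 from the contig names and not compared with an hg19 annotation, TBX5-AS1 spans chr12:114846000-114850637 on the plus strand, and its start lies 2032 bp from the start of TBX5, at chr12:114791735-114843968 on the minus strand, so the genes run away from each other. TBX5-AS1 was read at 16.0 and 15.3 CPM in WT and at 4.81 and 6.39 CPM in the labelled knockout libraries. It fell by 1.47 on the log2 scale (SE 0.15, edgeR adjusted p = 2.13e-06), while TBX5 itself did not pass the test. Per 100 TBX5 counts there were 30.0 and 30.9 TBX5-AS1 counts in WT and 11.5 and 12.8 in the labelled knockout libraries, without overlap. The gene models do not overlap in the table, and no label or header says whether strand was used in counting, so reads of unannotated transcript ends could have been assigned to either gene.

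TBX2-AS1, at chr17:59470817-59476967 on the minus strand, starts 290 bp from the start of TBX2 at chr17:59477257-59486827 on the plus strand. WT libraries read 20.1 and 19.1 CPM of it, and labelled knockout libraries 22.6 and 25.4 CPM. The log2 fold change was 0.29 (SE 0.10, edgeR adjusted p = 0.0251), and this call was lost under 5 of 13 other settings, with DESeq2 (adjusted p = 0.130), with the replicate block (edgeR adjusted p = 0.0573) and without WT replicate 1 (edgeR adjusted p = 0.0580), WT replicate 2 (edgeR adjusted p = 0.124) or labelled knockout replicate 2 (edgeR adjusted p = 0.180).

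The genomic surroundings of the T-box genes were described next. TBX4 lies at chr17:59533807-59561664 on the plus strand (hg19), 46980 bp beyond TBX2. Among the 5 tested genes whose lowest coordinate lay within 500 kb of that of TBX4, members excluded, 4 rose and 0 fell, whereas TBX4 fell. They were TBX2-AS1, BRIP1, INTS2 and MED13, the last 3 named after their values were seen. BRIP1, a DNA repair helicase, went from 32.6 ± 3.02 to 43.0 ± 4.82 CPM (SD, n = 2 each; edgeR adjusted p = 0.00377). INTS2 and MED13 rose by 0.25 and 0.18 on the log2 scale, and both calls were lost under 7 of 13 other settings. TBX3 lies at chr12:115108059-115121969 on the minus strand, 264091 bp from TBX5, and TBX5-AS1 was the only tested gene within 500 kb of either, members excluded.

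TBX6, at chr16:30097115-30103205 on the minus strand, sits in a gene-dense stretch in which 42 neighbours within 500 kb were tested, with 11 higher and 7 lower. YPEL3, on the minus strand too, ends 430 bp from the start of TBX6. Reads running past that end could have been assigned to TBX6, which was at 2.77 CPM on average in WT, and this was not tested. YPEL3 fell from 44.5 ± 2.91 to 15.1 ± 0.939 CPM (SD, n = 2 each), a log2 fold change of -1.56 (SE 0.09, edgeR adjusted p = 4.50e-09), close in size to that of TBX6. FAM57B and ASPHD1 went the other way, with log2 fold changes of 2.41 and 1.74, and the FAM57B call was lost with DESeq2 (adjusted p = 0.0715) and without WT replicate 1 (edgeR adjusted p = 0.0655). The FAM57B log2 fold change was 1.74 without WT replicate 1 and 3.65 without WT replicate 2. Over all T-box loci, 21 of 74 tested neighbours rose and 11 fell, so 43.2% were called, against 44.2% of all genes tested. At TBX15 (chr1:119425666-119532179, minus strand) 1 neighbour was tested and at TBX20 (chr7:35242042-35293711, minus strand) 2 were, of which 0 passed the test. TBX18 (chr6:85442216-85473954, minus strand) had 0 neighbours in that window. TBX1 (chr22:19744226-19767068, plus strand) had 22 tested neighbours, 5 higher and 3 lower, among them LOC284865, which rose from 0.127 ± 0.141 to 1.18 ± 0.0783 CPM (SD, n = 2 each). The fitted log2 fold change of LOC284865 was 3.32, but 2.35 without WT replicate 1 and 7.55 without WT replicate 2, so its size rested on which near-zero WT library was kept. EOMES (chr3:27757440-27764206, minus strand) had 1 tested neighbour, SLC4A7, which rose by 0.61 on the log2 scale.

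**Figure D4:**
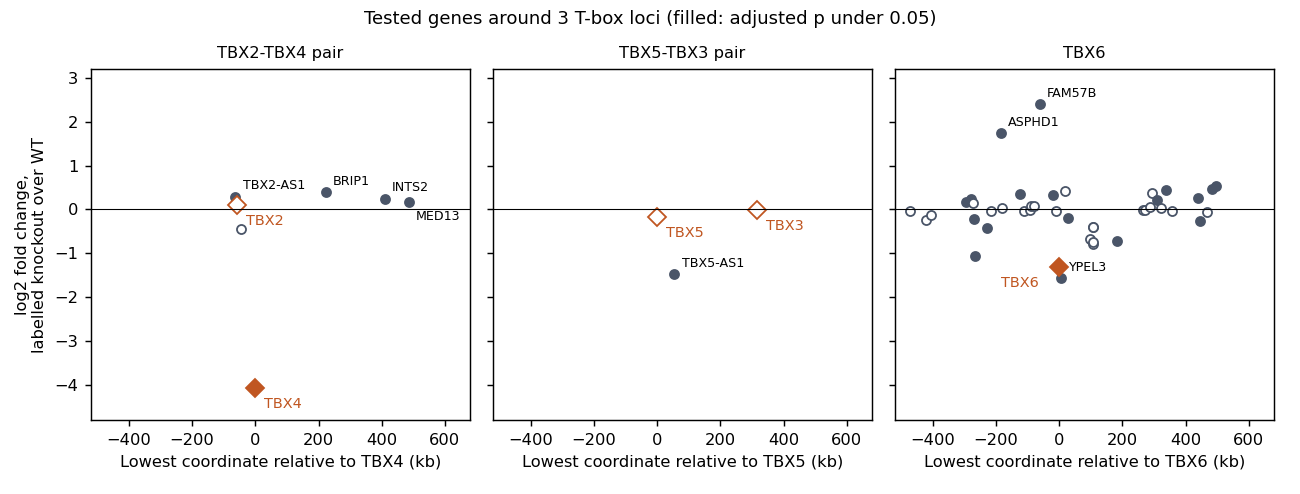
Log2 fold change (labelled knockout over WT) of tested genes around TBX4, TBX5 and TBX6 against the distance in kb between lowest coordinates, with diamonds for T-box genes, circles for other genes and filled symbols for an adjusted p under 0.05. TBX4 at -4.07 stands apart from its neighbours, which lie near 0, and YPEL3 at -1.56 lies beside TBX6 at -1.32.

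The genes nearest to TBX4 in profile, by root mean square difference of centred log2 (CPM + 0.05) over the 4 libraries among 12273 genes with at least 5 CPM in the higher group, were VIPR2 (difference 0.125), KCNJ18 (0.184) and KCNK15 (0.191). VIPR2, a receptor for vasoactive intestinal peptide, read 6.29 and 6.63 CPM in WT and 0.256 and 0.481 CPM in the labelled knockout libraries. The likeness is over 4 libraries only and was what the genes were chosen for.

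Promoter windows of the 4 T-box genes that fell are shown because these members moved in the same direction and TFAP2A, the labelled gene, encodes an AP-2 factor. They are RefSeq windows on GRCh38.p14, from 250 bases before to 50 bases after the annotated start, written 5′ to 3′ on the gene's strand, with matches to the AP-2 motif GCCNNNGGC in capitals. Their positions are chr17:61456238-61456537 (plus strand) for TBX4, chr16:30091875-30092174 (minus strand) for TBX6, chr6:84764549-84764848 (minus strand) for TBX18 and chr7:35254051-35254350 (minus strand) for TBX20.
TBX4: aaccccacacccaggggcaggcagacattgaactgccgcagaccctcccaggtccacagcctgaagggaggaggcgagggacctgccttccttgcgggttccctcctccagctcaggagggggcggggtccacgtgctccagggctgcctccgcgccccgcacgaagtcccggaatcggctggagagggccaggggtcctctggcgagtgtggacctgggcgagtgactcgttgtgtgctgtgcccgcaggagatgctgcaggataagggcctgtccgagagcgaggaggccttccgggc
TBX6: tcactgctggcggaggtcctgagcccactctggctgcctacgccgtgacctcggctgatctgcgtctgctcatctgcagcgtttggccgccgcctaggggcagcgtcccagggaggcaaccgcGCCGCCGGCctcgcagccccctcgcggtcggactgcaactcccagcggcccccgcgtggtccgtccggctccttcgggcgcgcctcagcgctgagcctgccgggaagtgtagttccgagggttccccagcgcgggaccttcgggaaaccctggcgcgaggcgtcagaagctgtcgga
TBX18: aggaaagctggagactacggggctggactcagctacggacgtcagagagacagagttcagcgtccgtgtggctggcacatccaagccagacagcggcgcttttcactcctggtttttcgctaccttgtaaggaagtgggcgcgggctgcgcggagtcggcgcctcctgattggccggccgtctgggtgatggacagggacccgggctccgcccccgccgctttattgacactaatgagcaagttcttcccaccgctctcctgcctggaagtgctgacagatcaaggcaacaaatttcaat
TBX20: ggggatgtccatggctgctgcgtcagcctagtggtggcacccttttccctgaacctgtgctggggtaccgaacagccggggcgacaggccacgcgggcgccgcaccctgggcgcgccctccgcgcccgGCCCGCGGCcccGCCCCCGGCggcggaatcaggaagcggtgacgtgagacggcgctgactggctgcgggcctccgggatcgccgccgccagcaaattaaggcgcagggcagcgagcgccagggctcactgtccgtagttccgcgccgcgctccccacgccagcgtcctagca

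TBX20 held 2 matches to this motif, GCCCGCGGC and GCCCCCGGC, starting 122 and 110 bases before the start. TBX6 held 1, GCCGCCGGC, starting 127 bases before the start. The windows of TBX4 and TBX18 held none, nor did those of TBX1, TBX5 and EOMES, and 23.2% of all 35116 windows of this length held at least 1 match. This share is not matched for base content. G and C made up 71.3% of the TBX6 window and 73.3% of the TBX20 window, against a median of 58.7% over all windows. The windows of TBX4 and TBX18 stood at 68.3% and 59.3%. The motif reads the same on both strands, so each match counts once. The T-box half-site AGGTGTGA, searched on both strands, was in none of the T-box gene windows and in 0.980% of all windows, so it overlapped no AP-2 match there. The RefSeq start used for TBX4 lies 4084 bases downstream of the gene start in GENCODE v29 and 24 bases from the nearest GENCODE transcript start. The TBX4 window therefore lies within the gene, and the sequence around its gene start was not searched. The lack of a match in that window says nothing about the sequence there. A match is a description of the letters and shows no binding.

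Partner factors of T-box proteins moved in both directions. Of 16 listed, all tested, 7 rose, 5 fell and 4 did not pass, with a median log2 fold change of -0.0016. Over all genes tested, 21.9% rose and 22.3% fell. Among the listed GATA factors, GATA4 rose by 1.11 on the log2 scale (SE 0.10, edgeR adjusted p = 0.000193), GATA6 fell by 0.77 and GATA5 did not pass. HAND1, a basic helix-loop-helix factor of heart and extraembryonic mesoderm, fell from 323 and 353 CPM to 76.9 and 71.8 CPM (log2 fold change -2.18, SE 0.06, edgeR adjusted p = 2.79e-12). FOXC2 and FOXC1, forkhead factors known to act upstream of TBX1, rose by 3.23 (SE 0.22, edgeR adjusted p = 1.78e-07) and 1.97 (SE 0.13, edgeR adjusted p = 2.90e-07) on the log2 scale, while TBX1 stayed near the floor in both genotypes. NKX2-5, the cardiac partner of TBX5 and TBX20, was low at 0.732 ± 0.0326 and 0.181 ± 0.00288 CPM (SD, n = 2 each; edgeR adjusted p = 0.0113), and this call was lost with DESeq2 (adjusted p = 0.136) and without WT replicate 1 (edgeR adjusted p = 0.0611) or labelled knockout replicate 2 (edgeR adjusted p = 0.0615).

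Of 24 listed targets reported for T-box factors, 11 were tested: 2 rose, 4 fell and 5 did not pass, with a median log2 fold change of -0.05. The shares over all genes tested were 21.9% higher and 22.3% lower. DLL1, a Notch ligand and TBX6 target in paraxial mesoderm, fell from 16.2 and 16.4 CPM to 4.33 and 3.39 CPM (log2 fold change -2.09, SE 0.15, edgeR adjusted p = 5.80e-08), beside the fall of TBX6. DLL3, in this list and also among the presomitic markers set beside TBX6, was low and did not pass (log2 fold change -0.048, SE 0.37, edgeR adjusted p = 0.931). MESP2, RIPPLY2 and MSGN1, other genes of the TBX6 programme, were not tested because of low counts. LHX1, a target of EOMES in mesendoderm, was at 0.0839 and 0.0567 CPM in WT and at 8.91 and 7.79 CPM in the labelled knockout libraries, while EOMES was at 0 counts throughout. With 2.5 WT counts in all, the LHX1 ratio was 118, with a 95% exact (Clopper-Pearson) counting interval of 40.6 to 1225. Reported targets of repression by TBX2 and TBX3, whose levels did not pass the test, split: CDH1, CDKN1A and NDRG1 fell, by 0.86, 0.67 and 0.79 on the log2 scale, and GJA1 rose by 0.43.

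Signals known to act upstream of T-box genes were also mixed. Against shares of 21.9% higher and 22.3% lower over all genes tested, 13 of 18 listed signals were tested. Of these, 4 were higher, 5 were lower and 4 did not pass, with a median log2 fold change of -0.15. The number higher was 2 without WT replicate 2. BMP4, a known inducer of TBX2 and TBX3, fell from 65.7 and 73.3 CPM to 24.5 and 22.3 CPM (log2 fold change -1.57, SE 0.08, edgeR adjusted p = 1.41e-09), while TBX2 and TBX3 did not pass the test. The other listed BMP ligands were split: BMP2 and BMP5 rose (log2 fold changes 1.23 and 0.88) and BMP7 fell (-0.89). WNT3, a signal of the primitive streak, fell by 1.62 and WNT5A, a non-canonical WNT ligand, rose by 1.79 on the log2 scale. TGFB2 rose from 32.5 ± 2.87 to 169 ± 37.1 CPM (SD, n = 2 each; edgeR adjusted p = 0.00643), and its call was lost without WT replicate 1 (edgeR adjusted p = 0.0641) or WT replicate 2 (edgeR adjusted p = 0.0846).

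**Figure D5:**
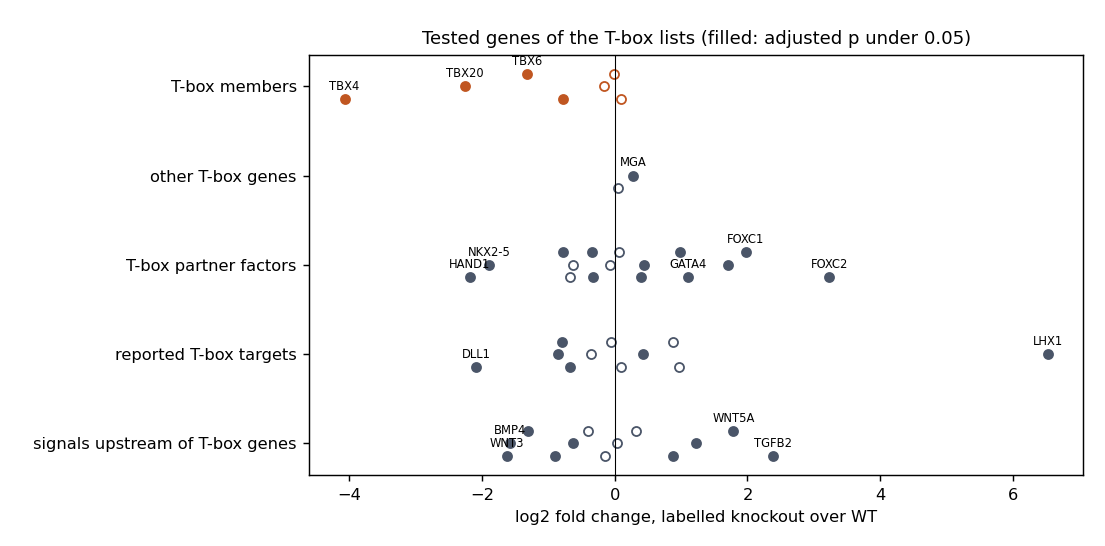
Log2 fold change (labelled knockout over WT) of each tested gene in the T-box, partner, target and upstream signal lists, with 1 circle per gene, filled for an adjusted p under 0.05 and spread vertically for legibility. The T-box members with calls lie on the lower side, whereas partners, targets and signals have calls on both sides.

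Markers of cell types in which T-box genes are known to act moved in different directions beside them. Of all genes tested, 22.3% fell and 21.9% rose, and the marker lists were chosen with earlier results of these data known. Cardiac muscle markers, set beside TBX5, TBX18 and TBX20, had 12 genes listed and 10 tested, of which 5 rose (3 with DESeq2 or without WT replicate 2), 2 fell and 3 did not pass. Their summed level was 143 and 154 CPM in WT and 231 and 214 CPM in the labelled knockout libraries. The largest rises in mean CPM were of TTN (47.9 to 75.7), RYR2 (30.4 to 59.0) and TNNI1 (17.6 to 35.2). MYH6 and MYL4 fell, and TNNT2, TNNI3 and ACTC1 did not pass. Mesenchymal and lateral plate markers, set beside TBX4 and TBX18, had 10 tested, with 6 lower (4 with DESeq2), 0 higher and 4 that did not pass, and 1 was higher when either labelled knockout replicate was left out. PRRX1, a limb and lateral plate factor, fell by 2.55 on the log2 scale, and PDGFRA did not pass (log2 fold change 0.12). Nascent and presomitic mesoderm markers, set beside TBX6 and EOMES, were nearly absent, with summed levels of 1.79 to 2.04 CPM in WT and 2.50 to 2.87 CPM in the labelled knockout libraries, and T and MSGN1 at 0 counts in every library. Of 2 tested, 0 were called, but MIXL1 lay close to the threshold, at 0.591 ± 0.00582 CPM in WT and 1.12 ± 0.00274 CPM in the labelled knockout libraries (SD, n = 2 each; log2 fold change 0.97, SE 0.38, edgeR adjusted p = 0.0518). It passed under 3 of 13 other settings, with upper-quartile factors (edgeR adjusted p = 0.0483), with a filter of at least 1 CPM in 2 libraries (edgeR adjusted p = 0.0499) and without robust estimation (edgeR adjusted p = 0.0480), and its highest adjusted p was 0.323, with DESeq2.

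Amnion and trophoblast markers, 8 of 8 tested, all fell, against 22.3% of all genes tested. Their summed levels went from 1867 and 2016 CPM in WT to 222 and 157 CPM in the labelled knockout libraries. Their median log2 fold change was -3.89, the same with CGA, at 0 counts in the labelled knockout, set at its limit, and that of TBX4 was -4.07. The list includes TFAP2C, the gene in the sample titles, which is also in the non-neural ectoderm list. The GABRP call was lost without WT replicate 1 (edgeR adjusted p = 0.116) or WT replicate 2 (edgeR adjusted p = 0.123). Endothelial markers went from summed levels of 42.8 and 40.9 CPM to 17.8 and 16.8 CPM, with 2 of 3 tested lower and PECAM1 at 0 counts in every library. Neural crest markers had 3 of 6 tested, 2 of them lower, with summed levels of 19.0 to 23.1 CPM in WT and 15.8 to 16.0 CPM in the labelled knockout libraries. Whether shifts in these cell types had a part in the falls of TBX4, TBX6, TBX18 and TBX20 was not tested.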

How the data were processed

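RNA-seq of 4 libraries, 2 WT and 2 labelled TFAP2A knockout, was analysed as estimated counts per gene, which the authors deposited in 1 table. TopHat, HOMER, DESeq2 and the build hg38 are named, per the submitters' processing notes. The counting annotation and strand use: not given in the sources used here. All values were multiples of 0.5 and 37.0% were not whole, so they were rounded for the count models. Only 4.345% of 22829 genes found in GENCODE v29 (GRCh38) began within 2000 bp of their place there, and 42 genes sat on contigs with hg19 names, and table coordinates are therefore given as hg19, without a comparison to an hg19 annotation. Columns were assigned by genotype and replicate number. Genotype label and column names point to TFAP2A, sample titles to TFAP2C.

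Genes were filtered with filterByExpr, scaled with TMM factors and tested by genotype in edgeR 4.0.16 (glmQLFit with robust estimation, glmQLFTest; R 4.3.3), with Benjamini-Hochberg adjustment over 15643 genes and a threshold of 0.05. The standard error is the size of the log2 fold change over the square root of F. Values in CPM use the unrounded counts. Between 0.137 and 0.170 CPM equalled 3 counts in a library. Replicate counts varied beyond sampling noise (chi-square per degree of freedom 4.51 in WT and 4.35 in the labelled knockout), and edgeR put the common biological coefficient of variation at 0.0577, on 2 residual degrees of freedom. For 2 against 2 libraries an exact two-sided permutation test cannot go below p = 0.333, so no such test is reported. The test was checked on simulated counts. These were drawn with means and dispersions estimated from these same libraries, so they cannot show whether the p-values hold for replicates of unknown type.

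The members and lists were chosen with earlier results of these data known. Named genes were all members, the 4 genes with the largest change that passed in each list, or the 2 most abundant where fewer than 2 passed, antisense genes, and up to 3 called neighbours per member that changed by 1 or more on the log2 scale. Other names were chosen after their values were seen. Exon length from GENCODE v29 and the pseudocount of 0.05 were chosen after the data were seen: the plan was to compare no levels between members if the table held no length. A planned comparison of protein sequences was not run. RefSeq promoter windows were matched by symbol for 7 of 10 members, with TBX2, TBX3 and TBX15 unmatched. Alternatives were edgeR's RLE and upper-quartile factors, DESeq2 1.42.0, limma-voom (limma 3.58.1), other filters, rounding down, no robust estimation, each library left out, and a replicate block.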

Additional observations from a re-analysis of the deposited data

How the results depend on the processing

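The 4 falls, of TBX4, TBX20, TBX6 and TBX18, kept their direction and stayed past the threshold under all 13 alternatives, with log2 fold changes of -4.66 to -3.68, -3.25 to -1.72, -1.38 to -1.26 and -0.95 to -0.59 and a highest adjusted p of 0.0414, for TBX18. The number of members that fell was 4 to 5, and the number that rose was 0 to 1 when 1 library was left out, the 1 being TBX2 without labelled knockout replicate 1. Leaving out 1 library also set TBX2 between -0.089 and 0.25, TBX3 between -0.11 and 0.072 (0.03 without WT replicate 2) and TBX5 between -0.30 and -0.047. TBX3 was at 0.0017 with upper-quartile factors. TBX19 was at -0.0037 with counts rounded down, -0.0015 without WT replicate 2 and -0.036 without labelled knockout replicate 1. DLL3, in the target list, ranged from -0.21 to 0.13 with 1 library left out (0.13 without WT replicate 1, 0.033 without labelled knockout replicate 2). The causes of these moves were not tested, beyond the fewer samples in each such fit, in which a lone library is assumed to vary like the other genotype. Of all genes tested, 2386 to 3647 rose and 2543 to 3652 fell.

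The replicate numbers gave no sign of pairing: the differences between replicates correlated at -0.0478 across genes between genotypes. With the replicate block TBX4 was at -4.06, TBX20 at -2.26, TBX6 at -1.32 and TBX18 at -0.77, with 4 members lower and 0 higher. With 2 libraries per genotype, genes near 3 counts per library, such as TBX1, TBX15 and TBX20 in the labelled knockout, are the least certain.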
